A study of Homo sapiens with 18 samples.

Results

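The HOX genes were followed in HCC1937-EV and HCC1937-OE-BRCA1, which the authors describe as a congenic pair of the BRCA1-mutated breast cancer cell line HCC1937. A shared origin of these sublines was not tested here. A row of the count matrix was taken as a HOX gene when its Ensembl identifier belonged to a protein-coding gene whose symbol was HOXA, HOXB, HOXC or HOXD followed by a number. Of 35044 genes in the matrix, 37 met this rule, 11 in the HOXA cluster, 9 in HOXB, 9 in HOXC and 8 in HOXD. HOXB1 and HOXD1 were not analysed here. RNA-seq was performed on 18 libraries in 6 conditions of 3 libraries each. The EV cells carried an empty vector and the OE-BRCA1 cells carried wild-type BRCA1 in addition to the mutated gene. Each subline was sampled without olaparib, an inhibitor of the DNA repair enzyme PARP, and after 12 h and 24 h at 10 µmol/L. The libraries include no untreated sample at 12 h or 24 h, so effects of olaparib and of time cannot be told apart. The sample labels name olaparib for every library and genotype WT for EV, and the condition names used here follow the library titles, in which time 0 is the untreated sample.

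HOX genes encode homeodomain transcription factors and lie side by side in clusters, in an order that matches where along the head-to-tail axis they act. Low-numbered genes at the 3′ end of a cluster are used early and towards the head, and high-numbered genes at the 5′ end are used late, towards the tail and in distal limb and genital structures. Adult cells and cell lines usually keep a stable set of HOX genes that reflects the body position of their tissue of origin. Polycomb complexes hold silent parts of the clusters shut, trithorax complexes with MLL keep active parts open, and retinoic acid induces genes at the 3′ end.

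On the GRCh38 assembly, as annotated in GENCODE 29, the HOXA genes lay at chr7:27092993-27200106 on the minus strand. HOXB lay at chr17:48528526-48729178 on the minus strand, HOXC at chr12:53938765-54056030 on the plus strand and HOXD at chr2:176092891-176190907 on the plus strand. Promoter sequence, 250 bases before and 50 after the start of the gene, was found in RefSeq for 18 of the 37 genes. HOXA10 was the HOXA gene with the highest level in OE-BRCA1. HOXA13 was the tested HOXA gene with the largest estimated difference between the untreated lines. HOXD8, HOXD10 and HOXD11 were at or near 0 in OE-BRCA1. The promoters of these genes are printed here. They are written 5′ to 3′ on the strand of the gene with CG dinucleotides in capitals, and their GRCh38.p14 positions are chr7:27179812-27180111 (minus), chr7:27200042-27200341 (minus), chr2:176129455-176129754 (plus), chr2:176116528-176116827 (plus) and chr2:176107030-176107329 (plus).
HOXA10: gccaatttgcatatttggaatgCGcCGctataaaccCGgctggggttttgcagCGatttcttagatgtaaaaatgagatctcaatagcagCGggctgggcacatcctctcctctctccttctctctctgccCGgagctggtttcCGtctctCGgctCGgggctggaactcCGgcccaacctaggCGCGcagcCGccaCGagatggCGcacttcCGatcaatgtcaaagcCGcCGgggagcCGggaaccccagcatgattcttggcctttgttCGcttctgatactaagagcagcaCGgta
HOXA13: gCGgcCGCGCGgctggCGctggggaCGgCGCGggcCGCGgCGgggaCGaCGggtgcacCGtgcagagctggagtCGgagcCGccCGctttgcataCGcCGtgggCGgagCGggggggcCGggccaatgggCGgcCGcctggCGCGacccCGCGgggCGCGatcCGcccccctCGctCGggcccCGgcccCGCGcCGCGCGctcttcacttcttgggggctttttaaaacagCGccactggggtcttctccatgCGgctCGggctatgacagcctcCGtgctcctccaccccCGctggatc
HOXD8: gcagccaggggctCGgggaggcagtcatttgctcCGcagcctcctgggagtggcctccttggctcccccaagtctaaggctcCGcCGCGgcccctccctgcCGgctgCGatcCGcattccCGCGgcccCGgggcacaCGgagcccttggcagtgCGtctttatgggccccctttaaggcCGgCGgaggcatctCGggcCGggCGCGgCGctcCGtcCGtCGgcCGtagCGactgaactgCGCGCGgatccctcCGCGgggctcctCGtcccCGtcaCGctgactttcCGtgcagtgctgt
HOXD10: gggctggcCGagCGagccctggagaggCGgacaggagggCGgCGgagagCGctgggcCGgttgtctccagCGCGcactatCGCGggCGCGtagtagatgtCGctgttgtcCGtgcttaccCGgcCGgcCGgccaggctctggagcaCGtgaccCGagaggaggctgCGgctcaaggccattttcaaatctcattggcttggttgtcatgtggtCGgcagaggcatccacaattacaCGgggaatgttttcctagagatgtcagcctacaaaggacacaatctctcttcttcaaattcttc
HOXD11: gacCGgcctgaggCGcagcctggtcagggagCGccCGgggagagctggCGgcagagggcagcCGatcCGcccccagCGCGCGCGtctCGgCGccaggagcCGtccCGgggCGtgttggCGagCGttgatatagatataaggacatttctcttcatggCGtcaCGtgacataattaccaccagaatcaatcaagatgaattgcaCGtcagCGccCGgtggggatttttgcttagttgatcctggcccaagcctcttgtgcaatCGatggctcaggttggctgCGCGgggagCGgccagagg
These windows held 21, 44, 34, 23 and 27 CG dinucleotides in the order printed. The median was 22.5 over the 18 HOX promoters, with a range of 4 (HOXD4) to 44 (HOXA13), and 14 over all 35116 promoters of the same length. HOXC4 and HOXC5 share 1 annotated window. On either strand, TATAAA occurred in 4 of the 18 HOX windows (22.2%) and in 11.5% of all promoters, TGATNNAT, a core bound by HOX proteins with their cofactors, in HOXA2 and HOXD11 (11.1%, against 7.4% of all), and AGGTCA, the half-site of nuclear receptors, in 0 HOX windows (13.8% of all). A match here is a description of letters and not of a bound site.

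Library totals ranged from 15081973 to 17571922 assigned reads. Levels are given as CPM, read counts scaled to 1000000 reads with TMM-scaled library sizes, and mean values are followed by the SD of 3 libraries. BRCA1 was at 125.8, 110.6 and 116.5 CPM in untreated EV and 166.1, 122.0 and 127.4 CPM in untreated OE-BRCA1, and the difference did not pass the test (log2 fold change 0.24, adjusted p = 0.0654, edgeR quasi-likelihood test). At 12 h it was at 118.5, 116.7 and 94.85 CPM in EV and 114.2, 129.6 and 125.8 CPM in OE-BRCA1, which overlapped (0.16, adjusted p = 0.197). At 24 h BRCA1 was higher in OE-BRCA1 (0.77, adjusted p = 3.17e-06). Of 6 epithelial markers, 3 reached 1 CPM in EV and 6 in OE-BRCA1, and their summed level ranged from 2890 to 3790 CPM over the EV libraries and from 5060 to 8710 CPM over the OE-BRCA1 libraries. The keratin gene KRT8 was at 1886 ± 67.8 CPM in untreated EV and 3799 ± 573 in untreated OE-BRCA1. In untreated EV, the defining epithelial genes EPCAM and CDH1 were at 0.0206 ± 0.0356 and 0.659 ± 0.215 CPM, and KRT5 at 0.0825 ± 0.0715 CPM. The same genes were at 310.1 ± 50.8, 434 ± 42.9 and 1550 ± 244 CPM in untreated OE-BRCA1. The mesenchymal gene VIM was at 306 ± 25.3 CPM in EV and 1.05 ± 0.273 CPM in OE-BRCA1, while CDH2 of the same list was at 0 in EV. Of 5 tested mesenchymal and fibroblast markers, 4 were lower and 1 higher in untreated OE-BRCA1, with 72.7% of all tested genes called. The summed level of 5 basal epithelial markers ranged from 4.43 to 9.98 CPM over the EV libraries and from 2830 to 4510 CPM over the OE-BRCA1 libraries, and that of 10 mesenchymal and fibroblast markers from 389 to 458 and from 9.76 to 16.1 CPM. The sums for breast lineage markers were 18.3 to 31.7 and 164 to 245 CPM, with TFAP2B at 0 in EV, those for endothelial markers 1.11 to 2.89 and 17.2 to 27.0 CPM, those for blood markers 0.559 to 2.28 and 0.754 to 2.28 CPM and those for epithelium of other organs 1.12 to 2.9 and 5.34 to 7.57 CPM. BRCA1 status and the other differences between the sublines cannot be told apart, and no source used here says that the 3 libraries of a condition came from separate cultures, so p-values measure the spread between these libraries.

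Both lines expressed a large set of HOX genes, and the sets differed most in the HOXD cluster. With a mean of at least 1 CPM counted as expressed, untreated EV cells expressed 25 of 37 genes, 6 of HOXA, 6 of HOXB, 8 of HOXC and 5 of HOXD. Untreated OE-BRCA1 cells expressed 19, 8 of HOXA, 4 of HOXB, 7 of HOXC and 0 of HOXD. At a mean of 5 CPM in place of 1, EV expressed 19 genes at each of the 3 times, and OE-BRCA1 10, 10 and 7 without olaparib, at 12 h and at 24 h. At 1 CPM both untreated lines expressed 15 genes, among these HOXA9, HOXA10, HOXA11, HOXB7, HOXB13 and HOXC4 to HOXC13 without HOXC5 and HOXC12. EV alone expressed 10 (HOXA13, HOXB5, HOXB6, HOXB9, HOXC5, HOXD4, HOXD8, HOXD9, HOXD10 and HOXD11) and OE-BRCA1 alone 4 (HOXA3, HOXA4, HOXA6 and HOXB2). HOXA2, HOXA7, HOXB4, HOXB8, HOXC12, HOXD3, HOXD12 and HOXD13 were under 1 CPM in both untreated lines. A gene may sit close to this line in either set, since HOXA6 was at 0.928 ± 0.429 CPM in EV and 1.24 ± 0.116 CPM in OE-BRCA1.

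**Figure D1:**
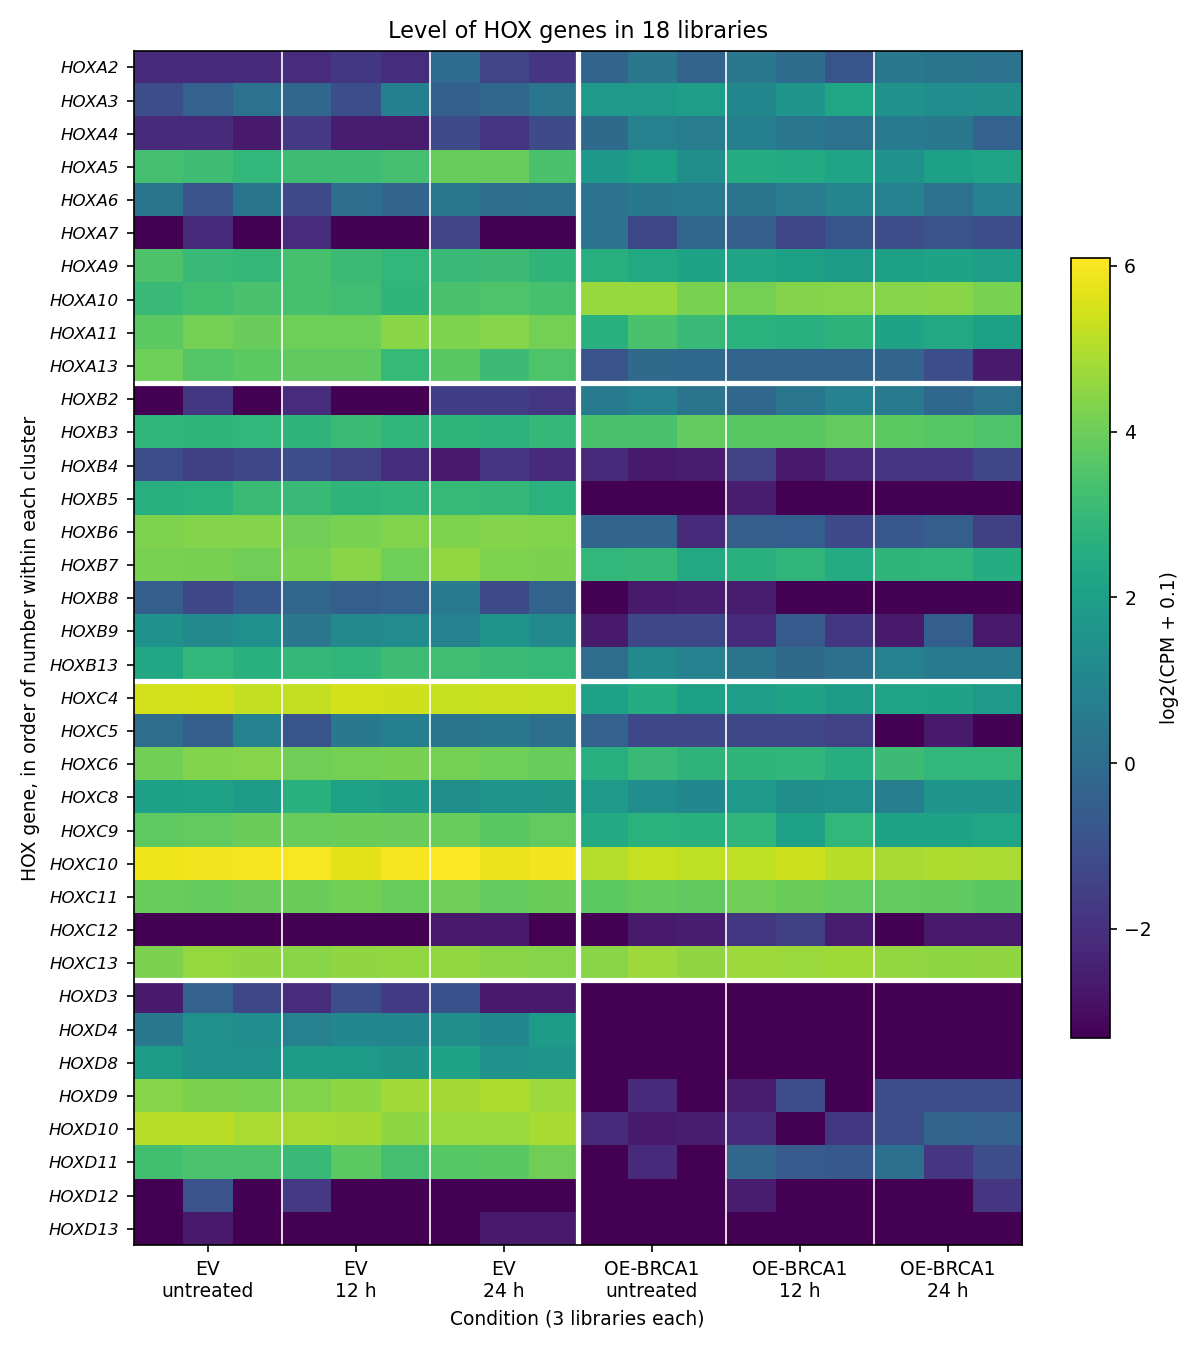
Level of HOX genes (rows, by cluster and number) in 18 libraries (columns, by condition), coloured as log2(CPM + 0.1). The HOXD rows are bright from HOXD8 to HOXD11 in the 9 EV libraries and dark in the 9 OE-BRCA1 libraries, while HOXC9 to HOXC13 without HOXC12 are bright in both.

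Per kb of exonic length, HOXC carried the largest part of the HOX signal in both lines. The summed level of all 37 genes was 149.8 ± 3.07 CPM per kb in untreated EV and 63.95 ± 5.66 CPM per kb in untreated OE-BRCA1. Of this sum, HOXC held 47.9 ± 1.23% in EV and 59.9 ± 2.17% in OE-BRCA1. HOXD held 20.1 ± 0.779% in EV and 0.108 ± 0.0896% in OE-BRCA1. HOXA held 14.2 ± 0.587% in EV and 28.5 ± 1.29% in OE-BRCA1, and its summed level was 21.25 ± 0.658 CPM per kb in EV and 18.28 ± 2.16 in OE-BRCA1. HOXB held 17.8 ± 0.254% and 11.5 ± 0.863%. The shares were computed in each library, and the 3 values of each line did not overlap for any of the 4 clusters. By position within a cluster, genes numbered 9 to 13 held 62.3 ± 0.698% of the sum in EV and 70.7 ± 1.53% in OE-BRCA1, genes 5 to 8 held 25.2 ± 0.617% and 17.6 ± 2.3%, and genes 1 to 4 held 12.5 ± 0.71% and 11.7 ± 0.786%.

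**Figure D2:**
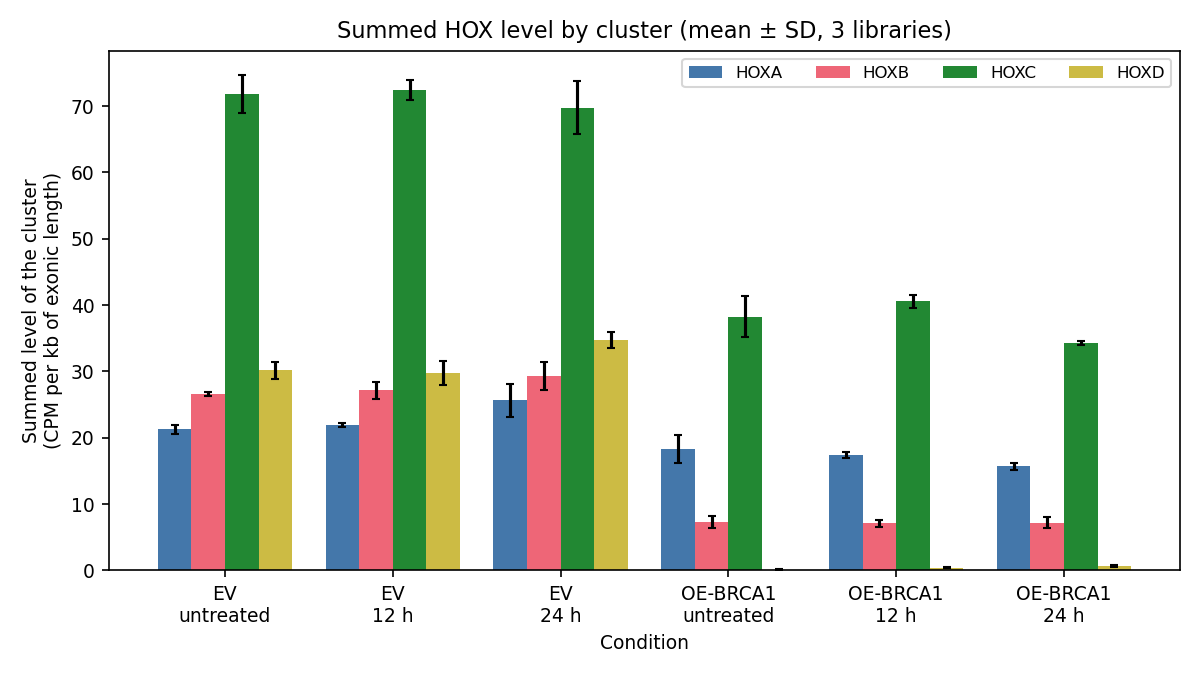
Summed level of each HOX cluster (CPM per kb of exonic length, bars, mean of 3 libraries; error bars, SD) in the 6 conditions. HOXC is the tallest bar in every condition, at 71.77 in untreated EV and 38.26 in untreated OE-BRCA1, and HOXD falls from 30.15 to 0.0721 between those conditions.

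HOXC10, a gene of the lumbar region and hindlimb, led both lists on this per-length scale, at 26.0 ± 1.19 CPM per kb in EV and 15.54 ± 1.33 in OE-BRCA1. In EV it was followed by HOXC4 (15.42 ± 1.3), HOXD10 (12.21 ± 0.893), HOXB7 (11.49 ± 0.624), HOXD9 (10.35 ± 0.798) and HOXC13 (9.13 ± 1.15). HOXD10 and HOXB7, HOXB7 and HOXD9, and HOXD9 and HOXC13 are neighbours whose means lay within the sum of their SDs. In OE-BRCA1 the order was HOXC13 (9.704 ± 0.938), HOXA10 (6.134 ± 1.02), HOXB7 (4.391 ± 0.915), HOXC11 (4.244 ± 0.256) and HOXA11 (3.55 ± 0.896), and from HOXA10 on each of these lay within the sum of the SDs of its neighbour.

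Against the background of 72.7% of 18335 tested genes called between the untreated lines at an adjusted p under 0.05, 7 HOX genes were higher and 21 lower in OE-BRCA1 of 31 tested (edgeR quasi-likelihood test with Benjamini-Hochberg adjustment). DESeq2 called 27. The median log2 fold change was -1.29 over the 31 genes and 0.11 over all tested genes, and the median absolute value was 2.07 against 0.96. Of the 31, 19 reached the level of the filter (0.622 CPM) in at least 3 libraries of each line, 9 reached it in EV alone and 3 in OE-BRCA1 alone, so those 12 passed only through the line in which they were high. HOXA7, HOXB4, HOXC12, HOXD3, HOXD12 and HOXD13 were not tested. At 12 h, 8 HOX genes were higher and 21 lower in OE-BRCA1 (72.9% of all genes called). DESeq2 called 30 HOX genes at that time, beside 7334 genes higher and 6044 lower of all. At 24 h, 7 were higher and 20 lower (73.9%). DESeq2 called 27 there, beside 7526 genes higher and 6080 lower of all. Over the 9 libraries of each line, 6 genes were higher in every OE-BRCA1 library than in every EV library, HOXA3, HOXA4, HOXA10, HOXB2 and HOXB3 among them, 19 were lower in every one, and HOXA2, HOXA6, HOXC5, HOXC8, HOXC11 and HOXC13 overlapped. Among all tested genes 53.4% did not overlap. No such share is given here for comparisons of 3 against 3 libraries.

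**Figure D3:**
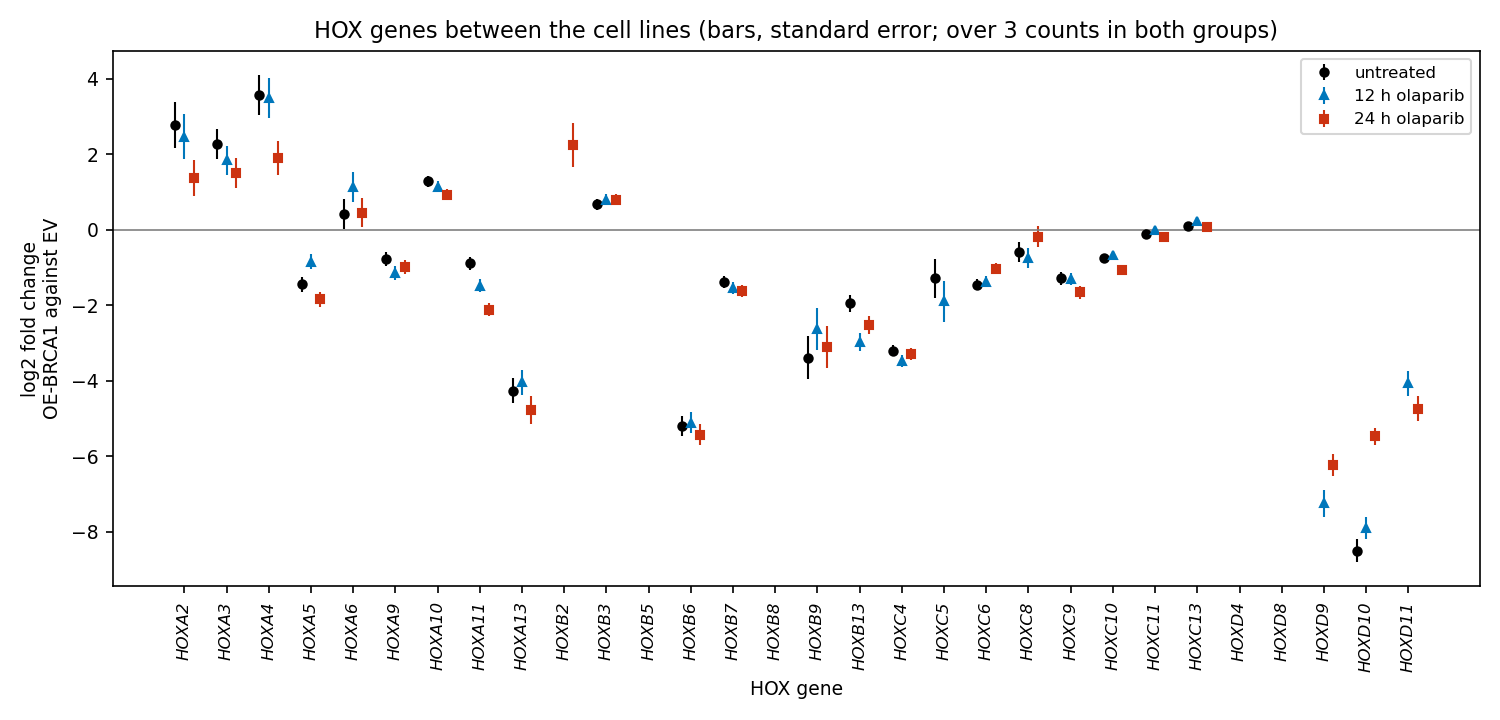
log2 fold change of OE-BRCA1 against EV (points, with standard error bars) without olaparib and at 12 h and 24 h, for tested HOX genes with over 3 reads in both groups at that time. Bars can be smaller than counting error where a group had few reads. HOXD10 lies at -8.51, -7.89 and -5.47 at the 3 times, HOXC11 and HOXC13 lie near 0, and HOXA2, HOXA3 and HOXA4 lie above it at each time.

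In the HOXA cluster HOXA2, HOXA3 and HOXA4 towards the 3′ end and HOXA10 were higher in untreated OE-BRCA1, and HOXA5, HOXA9, HOXA11 and HOXA13 were lower. HOXA3, which acts in the pharyngeal arches, was at 0.373, 0.680 and 1.05 CPM in EV and 3.33, 3.27 and 3.65 in OE-BRCA1, without overlap (log2 fold change 2.27 ± 0.405, SE, adjusted p = 3.8e-05). HOXA4 was at or under 0.124 CPM in each untreated EV library and at 0.862, 1.60 and 1.45 CPM in OE-BRCA1 (3.56 ± 0.534, adjusted p = 4.39e-06), and 31.0% of its exonic bases are shared with other genes on the same strand. HOXA2, which patterns the second branchial arch, was under 1 CPM in both untreated lines, at 0.124 ± 0.000451 CPM in EV and 0.888 ± 0.299 CPM in OE-BRCA1 (2.77 ± 0.611, adjusted p = 0.000386). HOXA2 kept this call at 24 h (1.37, adjusted p = 0.0132), but not without EV 24 h replicate 2 (1.15, adjusted p = 0.061) or replicate 3 (1.005, adjusted p = 0.0736). HOXA6 did not pass the test without olaparib (0.42, 95% interval -0.35 to 1.18, adjusted p = 0.345) and was called higher at 12 h (1.13, adjusted p = 0.0163), a call lost without EV 12 h replicate 1 (0.80, adjusted p = 0.0896) or OE-BRCA1 12 h replicate 3 (0.94, adjusted p = 0.072). HOXA7 had 2 reads over the 3 untreated EV libraries and 35 over those of OE-BRCA1, a ratio of 17.6 with a 95% counting interval of 4.51 to 151, and 62.5% of its exonic bases overlap another gene when strand is ignored.

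HOXA10, which patterns the uterus and the lumbar region, was at 8.26, 9.46 and 10.3 CPM in untreated EV and 24.9, 24.9 and 18.4 CPM in untreated OE-BRCA1 (1.28 ± 0.151, adjusted p = 1.53e-07). Its neighbours on both sides went the other way. HOXA9, known in blood progenitors, was at 10.99, 8.22 and 7.71 CPM in EV and 6.10, 5.24 and 4.28 in OE-BRCA1 (-0.78 ± 0.182, adjusted p = 0.000631). HOXA11, needed in limb and uterus, was at 12.98, 17.4 and 15.3 CPM in EV and 6.16, 10.3 and 8.12 in OE-BRCA1 (-0.89 ± 0.173, adjusted p = 9.79e-05). Among tested HOXA genes, HOXA13, a gene of hands, feet and the genital tract, had the largest absolute log2 fold change by point estimate. HOXA13 was at 16.15, 11.93 and 13.01 CPM in EV and 0.431, 0.863 and 0.819 in OE-BRCA1 (-4.27 ± 0.333, adjusted p = 2.45e-10). HOXA5, a factor of lung development and mammary epithelium, was at 9.57, 8.84 and 7.53 CPM in EV and 3.14, 3.94 and 2.39 in OE-BRCA1 (-1.45 ± 0.208, adjusted p = 2.58e-06). In each of HOXA5, HOXA9, HOXA11 and HOXA13 the untreated libraries of the lines did not overlap.

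In the HOXB cluster only HOXB2 and HOXB3, the tested genes nearest the 3′ end, were higher in OE-BRCA1, and the other 6 tested genes were lower. HOXB2, a hindbrain gene, had 3 reads over the untreated EV libraries and 68 over the OE-BRCA1 libraries, a ratio of 22.7 with a 95% counting interval of 7.46 to 113 (adjusted p = 1.25e-05). HOXB3 was at 7.27, 7.05 and 7.53 CPM in EV and 10.3, 10.4 and 14.1 in OE-BRCA1 (0.67 ± 0.147, adjusted p = 0.000356). The next gene, HOXB4, was under 0.4 CPM in each of the 18 libraries.

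HOXB5 and HOXB6, genes of the neck and thorax level, had the largest differences of the cluster between the untreated lines by point estimate. HOXB5 was at 5.90, 6.43 and 8.39 CPM in untreated EV (335 reads) and had 0 reads in untreated OE-BRCA1, so that EV was at least 111-fold higher with 3 counts over the group as the floor (adjusted p = 3.78e-11). Over all 9 OE-BRCA1 libraries HOXB5 had 1 read. HOXB6 was at 19.5, 20.1 and 20.4 CPM in EV and 0.739, 0.739 and 0.126 in OE-BRCA1 (-5.20 ± 0.269, adjusted p = 2.85e-13). HOXB7 remained well expressed in both lines, at 18.3, 17.9 and 16.5 CPM in EV and 7.39, 7.64 and 5.10 in OE-BRCA1 (-1.39 ± 0.167, adjusted p = 2.19e-07). HOXB8 had 23 reads in untreated EV and 2 in OE-BRCA1, a ratio of 11.5 with a 95% counting interval of 2.83 to 100 (adjusted p = 0.00197). HOXB9 was at 2.46 ± 0.383 CPM in EV and 0.228 ± 0.144 in OE-BRCA1 (-3.39 ± 0.572, adjusted p = 2e-05). HOXB13, set apart from the rest of the cluster and best known in prostate, was at 4.91, 7.36 and 6.29 CPM in EV and 0.924, 2.16 and 1.70 in OE-BRCA1 (-1.95 ± 0.234, adjusted p = 1.96e-07).

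HOXC was the cluster with the smallest differences at its 5′ end. HOXC11 was at 14.9, 14.6 and 15.2 CPM in untreated EV and 13.1, 14.7 and 13.8 in OE-BRCA1, which overlapped (-0.11, 95% interval -0.33 to 0.12, adjusted p = 0.419). HOXC13, a gene of hair and nail, was at 19.0, 24.4 and 23.0 CPM in EV and 21.4, 25.9 and 23.2 in OE-BRCA1 (0.09, 95% interval -0.14 to 0.31, adjusted p = 0.498). The test called neither gene at 12 h or 24 h, while DESeq2 called HOXC13 at 12 h, where 21.3, 23.1 and 23.6 CPM in EV and 26.2, 25.9 and 27.1 CPM in OE-BRCA1 did not overlap (0.22, adjusted p = 0.0859 with edgeR). HOXC10 was at 57.5, 61.4 and 62.9 CPM in EV and 32.8, 38.9 and 36.97 in OE-BRCA1 (-0.74 ± 0.109, adjusted p = 3.42e-06), with no overlap.

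Towards the 3′ end of HOXC the difference was larger. HOXC9 was at 13.5, 14.2 and 15.9 CPM in EV and 5.29, 6.41 and 6.17 in OE-BRCA1 (-1.29 ± 0.171, adjusted p = 8.82e-07), and HOXC6, a thoracic gene also expressed in mammary gland, at 16.8, 19.8 and 20.7 against 6.03, 8.01 and 6.86 CPM (-1.45 ± 0.141, adjusted p = 8.7e-09). HOXC4, the 3′-most gene of the cluster, was at 43.7, 44.4 and 37.9 CPM in EV and 4.06, 5.61 and 3.97 in OE-BRCA1 (-3.21 ± 0.15, adjusted p = 5.3e-14), and 17.8% of its exonic bases are shared with other genes on the same strand. All 3 genes had no overlap between the untreated lines. HOXC8 was at 3.91, 4.14 and 3.39 CPM in EV and 3.20, 2.34 and 2.02 in OE-BRCA1. Its call (-0.60 ± 0.262, adjusted p = 0.0468) was lost with DESeq2 size factors or the DESeq2 test (-0.56 and 0.0631 with each), without a filter (-0.59, 0.0586), with the compared conditions alone (-0.58, 0.0536), with the replicate number as a block (-0.60, 0.0698) and without EV replicate 1 (-0.58, 0.0905), EV replicate 2 (-0.53, 0.119), OE-BRCA1 replicate 2 (-0.55, 0.112) or OE-BRCA1 replicate 3 (-0.46, 0.167), each with its adjusted p. At 12 h its call (-0.75, adjusted p = 0.0127) was lost without EV 12 h replicate 1 (-0.47, adjusted p = 0.119), and at 24 h it was not called (-0.18, adjusted p = 0.554).

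HOXC5 was low in both lines, at 15, 10 and 27 reads per library in untreated EV and 11, 5 and 5 in untreated OE-BRCA1, and the lines overlapped. Of its exonic bases 59.9% are shared with other genes on the same strand. Its untreated call (-1.29 ± 0.507, adjusted p = 0.0275) was lost without EV replicate 3 (-0.83, adjusted p = 0.195), OE-BRCA1 replicate 2 (-1.10, adjusted p = 0.0955) or OE-BRCA1 replicate 3 (-1.11, adjusted p = 0.0936). HOXC12 had at most 4 reads in any library.

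The HOXD cluster was expressed in EV and nearly silent in OE-BRCA1. The 8 HOXD genes summed to 1111, 1141 and 1044 reads in the untreated EV libraries and to 2, 5 and 1 reads in the untreated OE-BRCA1 libraries. As levels these were 67.97 ± 3.19 and 0.1647 ± 0.128 CPM. HOXD10, which acts in limb and lumbar cord, was at 33.7, 34.7 and 30.2 CPM in EV and had 2, 1 and 1 reads in OE-BRCA1. Its estimate (-8.51, adjusted p = 5.31e-16, edgeR quasi-likelihood test) rests on 4 reads in OE-BRCA1. HOXD9 had 938 reads over the untreated EV libraries and 2 over those of OE-BRCA1, a ratio of 468 with a 95% counting interval of 129 to 3870 (adjusted p = 1.01e-13). HOXD11, a gene of the forearm, had 495 and 2, a ratio of 247 with an interval of 68.0 to 2040 (adjusted p = 1.45e-11).

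HOXD8 (144 reads in untreated EV) and HOXD4 (100 reads) had 0 reads in all 9 OE-BRCA1 libraries, and EV was at least 47.9-fold and at least 33.2-fold higher without olaparib (adjusted p = 1.51e-08 and 4.44e-07). Of the exonic bases of HOXD4, 80.5% are shared with another gene on the same strand. HOXD3, which was not tested, had 17 reads in untreated EV and 0 in OE-BRCA1, at least 5.65-fold. HOXD12 had 7 reads in 1 untreated EV library and 0 in the other two, 3 over EV at 12 h and 0 at 24 h, and 0, 1 and 3 reads over the OE-BRCA1 libraries of the 3 times. HOXD13, at the 5′ end of the cluster and known for the digits, had 3 reads over the 9 EV libraries and 0 over the 9 OE-BRCA1 libraries, which gives no fold. EV cells therefore had a run of 4 neighbouring expressed genes from HOXD8 to HOXD11, with HOXD12 and HOXD13 under 0.5 CPM in each library and HOXD4 at 2.06 ± 0.662 CPM.

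Among the HOX genes expressed in EV, changes under olaparib were small. The HOX genes expressed in untreated EV, 25 in number, had a median absolute log2 fold change of 0.108 at 12 h and 0.175 at 24 h, against 0.174 and 0.259 over all 13507 genes expressed in that line at the same level. None exceeded 1. At 12 h 0 of 31 tested HOX genes passed the test (0.0436% of all genes called, edgeR quasi-likelihood test). At an unadjusted p under 0.05 were 0 of them and 2963 of all 18335 tested genes. DESeq2 called 0, beside 154 genes higher and 91 lower of all. The number of expressed HOX genes was 25, 24 and 26 without olaparib, at 12 h and at 24 h, and 24 were expressed at all 3 times.

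At 24 h in EV, 1 of 31 HOX genes was called, against 13.7% of all tested genes. DESeq2 called 2, HOXA5 and HOXD9, beside 2009 genes higher and 1406 lower of all 18335 tested. At an unadjusted p under 0.05 with edgeR were 5 HOX genes and 5620 of all tested genes. HOXA5 went from 9.57, 8.84 and 7.53 CPM to 15.1, 14.8 and 10.5 CPM at 24 h, without overlap (0.64 ± 0.186, adjusted p = 0.0296). The call was kept without EV 24 h replicate 3 and lost without each of the other 5 libraries, EV untreated replicate 1 (0.71, adjusted p = 0.071), replicate 2 (0.65, adjusted p = 0.064) and replicate 3 (0.53, adjusted p = 0.127) and EV 24 h replicate 1 (0.55, adjusted p = 0.113) and replicate 2 (0.56, adjusted p = 0.124). Across genes, GC content was correlated (Spearman) with each library's deviation from the mean log level of the EV libraries. Its sign is relative to that mean. This correlation ranged from -0.618 to -0.242 in the untreated EV libraries and from 0.293 to 0.64 at 24 h. With an offset for GC content and length HOXA5 no longer passed (0.46, adjusted p = 0.0615, edgeR). HOXD9 was at 21.1, 18.7 and 18.3 CPM and then 28.3, 30.2 and 26.2 CPM (0.55 ± 0.189, adjusted p = 0.0573), and HOXD10 at 33.7, 34.7 and 30.2 and then 25.7, 25.4 and 28.9 CPM (-0.30 ± 0.149, adjusted p = 0.178), neither past the test. Both passed with the compared conditions alone. Among genes at a few reads per library in EV, HOXA2 went from 2, 2 and 2 reads to 15, 5 and 3 at 24 h (1.81 ± 0.665, adjusted p = 0.0708) and HOXA4 from 2, 2 and 1 to 6, 3 and 6 (1.46 ± 0.653, adjusted p = 0.135), both without overlap and not called. HOXB2 had 3 reads over the untreated EV libraries and 11 at 24 h, a ratio of 3.51 with a 95% counting interval of 0.928 to 19.6 (adjusted p = 0.224). The summed HOXD level of EV was 67.97 ± 3.19, 65.52 ± 3.45 and 74.97 ± 2.79 CPM at the 3 times.

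**Figure D4:**
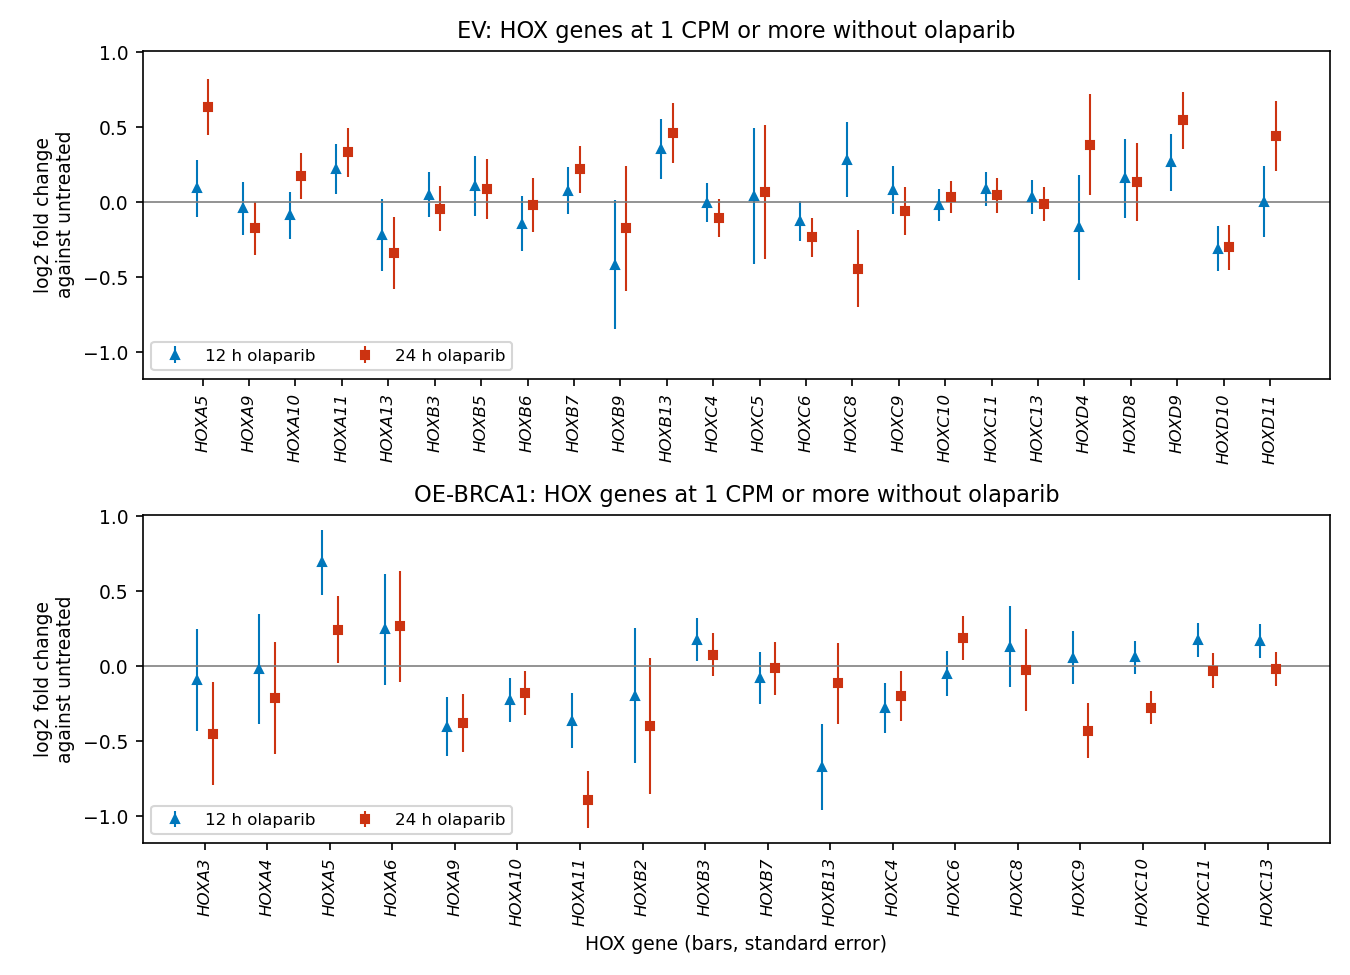
log2 fold change at 12 h and 24 h of olaparib against untreated cells (points; bars, standard error) for HOX genes expressed in each untreated line. The points of both lines stay between -1 and 1, with HOXA11 in OE-BRCA1 the lowest at -0.89.

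In OE-BRCA1 the changes of the expressed HOX genes were also small. The 19 genes expressed without olaparib had a median absolute log2 fold change of 0.175 at 12 h and 0.196 at 24 h, against 0.137 and 0.204 over all 14581 genes expressed in that line, and none exceeded 1. The number expressed was 19, 18 and 20 at the 3 times and 18 were expressed at each. HOXB13 (0.998 ± 0.143 CPM at 12 h) and HOXA2 (1.19 ± 0.0949 CPM at 24 h) crossed the line. The 12 h and 24 h comparisons of a line share their untreated libraries and are not independent of each other.

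HOXA11 was the expressed gene called lower in OE-BRCA1 at 24 h. It was at 6.16, 10.3 and 8.12 CPM without olaparib, 6.35, 6.05 and 6.74 CPM at 12 h and 4.18, 5.10 and 3.98 CPM at 24 h, and the 24 h libraries all lay below the untreated ones. The 24 h change was -0.89 ± 0.188 (adjusted p = 0.00508), and it was kept without any single library. In EV, HOXA11 was at 15.2 ± 2.19 CPM without olaparib and 19.2 ± 1.62 CPM at 24 h (0.33 ± 0.165, adjusted p = 0.177). The change differed between the lines (-1.22 ± 0.250, adjusted p = 0.00311). With the offset for GC content and length this difference was smaller (-0.89, adjusted p = 0.00197, edgeR). HOXC10 was at 32.8, 38.9 and 36.97 CPM in untreated OE-BRCA1 and 29.2, 30.5 and 30.1 CPM at 24 h (-0.27 ± 0.110, adjusted p = 0.129), a difference that passed without OE-BRCA1 untreated replicate 1. HOXC9 was at 5.29, 6.41 and 6.17 and then 4.301, 4.298 and 4.66 CPM (-0.43 ± 0.184, adjusted p = 0.157). Neither gene was called with all libraries. Neither overlapped between the times, with no share of all genes without such overlap given here. HOXA11-AS, the antisense gene beside it, was at 3.26 ± 0.957 CPM in untreated EV and 3.23 ± 0.248 in untreated OE-BRCA1. At 24 h it was at 5.94 ± 1.75 CPM in EV (0.87 ± 0.274, adjusted p = 0.0413) and 2.23 ± 0.896 CPM in OE-BRCA1 (-0.53 ± 0.300, adjusted p = 0.302), and the change differed between the lines (-1.40 ± 0.407, adjusted p = 0.021). Since the strand setting of the counting is not given in the sources used here, the reads of HOXA11 and HOXA11-AS may not be told apart.

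The other edgeR calls within OE-BRCA1 were on genes at a few reads per library. HOXD9, HOXD10, HOXD11 and HOXC5 entered the test only through their level in EV, and with the compared OE-BRCA1 conditions alone they were not tested, which left 0 calls at 12 h and 1 at 24 h, HOXA11. At 12 h, 1 of 31 HOX genes was called (2.31% of all genes). DESeq2 called 2, HOXA5 and HOXD11, beside 447 genes higher and 224 lower of all 18335. At 24 h, 5 were called, 3 higher and 2 lower (8.26% of all genes). DESeq2 called 5 there, beside 1066 genes higher and 1071 lower of all. HOXD11 had 0, 2 and 0 reads without olaparib, 12, 9 and 8 at 12 h and 16, 3 and 6 at 24 h. The ratio of pooled reads was 14.6 at 12 h (95% counting interval 3.68 to 126, adjusted p = 0.0167) and 12.4 at 24 h (3.08 to 108, adjusted p = 0.0169), and the libraries did not overlap. HOXD10 had 2, 1 and 1 reads without olaparib, 2, 0 and 3 at 12 h and 6, 12 and 11 at 24 h (2.73, adjusted p = 0.00314, edgeR). HOXD9 had 0, 2 and 0 reads, then 1, 6 and 0, then 6, 6 and 6, a ratio of 8.9 at 24 h (2.13 to 79.1, adjusted p = 0.0353).

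**Figure D5:**
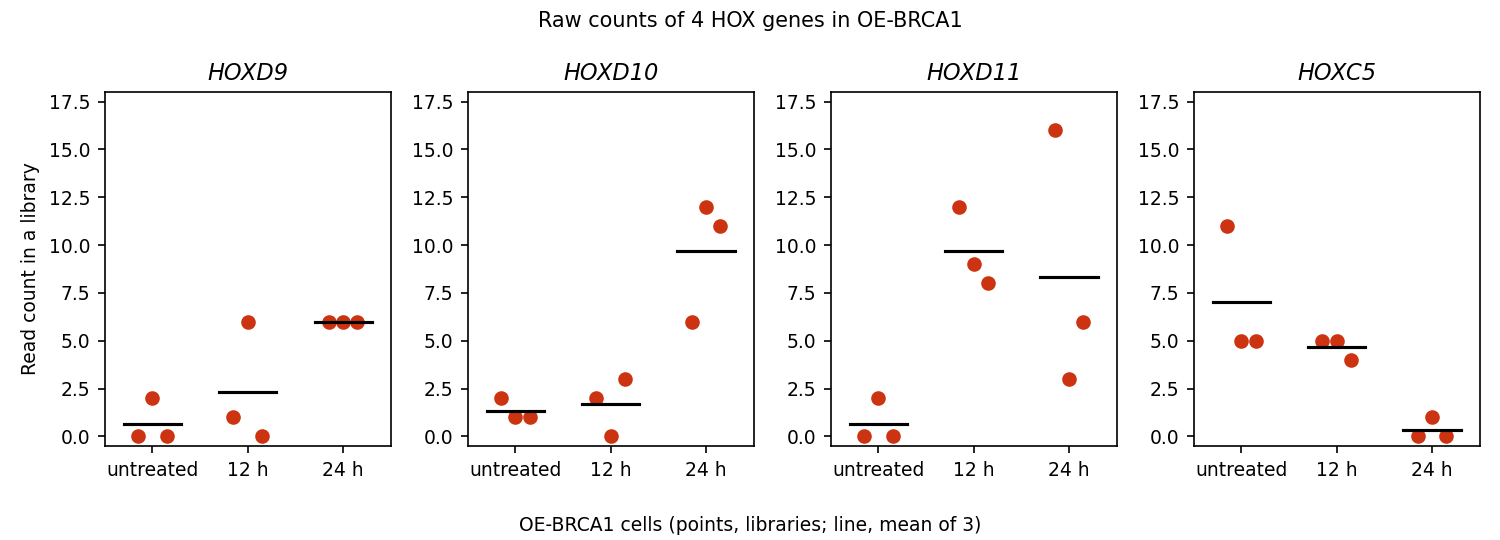
Raw read counts of 4 HOX genes in the 9 OE-BRCA1 libraries (points; line, mean of 3) without olaparib and at 12 h and 24 h. HOXD9, HOXD10 and HOXD11 lie between 0 and 2 without olaparib and between 3 and 16 at 24 h, while HOXC5 goes from between 5 and 11 to 0 or 1.

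HOXA5 was at 3.14, 3.94 and 2.39 CPM in untreated OE-BRCA1 and 5.59, 5.38 and 4.39 CPM at 12 h, without overlap (0.70 ± 0.216, adjusted p = 0.116). It passed with DESeq2 and with the offset for GC content and length, and at 24 h it overlapped the untreated level (0.24, adjusted p = 0.555).

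The HOXD sum of OE-BRCA1 was 2, 5 and 1 reads without olaparib, 16, 15 and 11 at 12 h and 28, 21 and 26 at 24 h, and the 3 times did not overlap. As levels these were 0.1647 ± 0.128, 0.8706 ± 0.156 and 1.535 ± 0.221 CPM, against 74.97 ± 2.79 CPM in EV at 24 h. The HOXD share of the summed HOX level was 0.634 ± 0.132% at 12 h and 1.22 ± 0.241% at 24 h. The antisense gene HOXD-AS2 had 0, 2 and 6 reads over the OE-BRCA1 libraries of the 3 times (24 h against untreated, adjusted p = 0.0531). HOXD4 and HOXD8 stayed at 0 reads, HOXB5, at 6.91 ± 1.31 CPM in untreated EV, had 1 read over the 9 libraries, and HOXB-AS3, at 10.6 ± 0.807 CPM in untreated EV, had 0. VIM, which was 306 ± 25.3 CPM in EV, was at 1.05 ± 0.273, 0.907 ± 0.372 and 1.51 ± 0.434 CPM in OE-BRCA1 at the 3 times, and its 24 h change did not pass the test (0.52 ± 0.289, adjusted p = 0.291). Shared exonic bases on the same strand were 21.4% for HOXD11 and 16.8% for HOXD10.

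HOXC5 went from 11, 5 and 5 reads in untreated OE-BRCA1 to 5, 5 and 4 at 12 h and 0, 1 and 0 at 24 h, a ratio of 21.2 between untreated and 24 h (95% counting interval 3.41 to 878, adjusted p = 0.0137). In EV it had 15, 10 and 27 reads without olaparib and 19, 22 and 16 at 24 h. The calls on low counts rested on single libraries. HOXC5 at 24 h was lost without OE-BRCA1 24 h replicate 1 (-3.52, adjusted p = 0.0618) or replicate 3 (-3.52, adjusted p = 0.0753). HOXD11 at 12 h was lost without OE-BRCA1 untreated replicate 1 (3.12, adjusted p = 0.0735) or replicate 3 (3.14, adjusted p = 0.0668) or OE-BRCA1 12 h replicate 1 (3.45, adjusted p = 0.0707), and at 24 h without untreated replicate 3 (2.91, adjusted p = 0.0735) or 24 h replicate 1 (2.53, adjusted p = 0.118). HOXD9 was kept without untreated replicate 2 and lost without untreated replicate 1 (2.42, adjusted p = 0.0641), untreated replicate 3 (2.44, adjusted p = 0.127) and 24 h replicates 1 (2.94, adjusted p = 0.0805), 2 (2.94, adjusted p = 0.0799) and 3 (2.94, adjusted p = 0.0967). With the replicate number as a block HOXD9 was also lost (2.97, adjusted p = 0.0531, edgeR). HOXD10 was kept without any single library, in fits that held the EV libraries.

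The change from untreated cells to cells under olaparib was compared between the lines by an interaction term. With no untreated library at 12 h or 24 h, this change holds any effect of time. The GC content correlation, taken within a line, ranged at 24 h from 0.293 to 0.64 in EV and from -0.469 to -0.315 in OE-BRCA1. In the untreated OE-BRCA1 libraries it ranged from -0.611 to 0.577. With the offset for GC content and length, 312 genes were called lower at 24 h with an absolute log2 fold change over 1, in place of 742. At 12 h 0 of 31 HOX genes passed (0.518% of all genes, edgeR quasi-likelihood test). At an unadjusted p under 0.05 were 4 of them and 2690 of all 18335 tested genes. DESeq2 called 1, HOXD11, beside 194 genes higher and 132 lower of all. At 24 h 4 passed (19.4% of all genes), HOXD10 (3.03 ± 0.564, adjusted p = 0.00184) and HOXD11 (2.96 ± 0.910, adjusted p = 0.0273) higher and HOXA11 and HOXC5 (-4.04 ± 1.089, adjusted p = 0.014) lower in OE-BRCA1 relative to EV. HOXD10 and HOXA11 were kept without any single library, with HOXD10 resting on 4 reads over the untreated OE-BRCA1 libraries. HOXD11 was lost without OE-BRCA1 untreated replicate 1 (2.45, adjusted p = 0.0609), untreated replicate 3 (2.46, adjusted p = 0.0959) or 24 h replicate 1 (2.09, adjusted p = 0.129), and HOXC5 without OE-BRCA1 24 h replicate 3 (-3.59, adjusted p = 0.0528).

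Non-coding genes inside the clusters followed their neighbours in part. Of 17 tested within 20 kb of a cluster, 2 were higher and 9 lower in untreated OE-BRCA1, with a median log2 fold change of -0.60, against 72.7% of all tested genes called in either direction. HOXB-AS3 was at 10.6 ± 0.807 CPM in EV and HOXD-AS2 at 8.83 ± 1.19 CPM, and both had 0 reads in untreated OE-BRCA1. HOXC13-AS was higher in OE-BRCA1 with no call on HOXC13 itself, at 3.26 ± 0.200 CPM in EV and 14.96 ± 0.815 in OE-BRCA1 (2.20 ± 0.156, adjusted p = 5.16e-11). HOTAIR, an RNA of the HOXC cluster known to bind polycomb proteins and named here after its values were seen, was at 39.3 ± 3.13 CPM in EV and 19.0 ± 1.26 in OE-BRCA1 (-1.05 ± 0.129, adjusted p = 2.94e-07). Of 20 tested protein-coding genes that flank the clusters, 1 was higher and 11 lower (72.7% of all tested genes called), among them LNPK beside HOXD, at 68.1 ± 6.86 CPM in EV and 20.2 ± 2.96 in OE-BRCA1 (-1.75 ± 0.158, adjusted p = 2.42e-09). At 24 h in EV, 1 of the 17 non-coding genes was higher and 1 lower, and 3 of the 20 flanking genes were higher, against 13.7% of all genes called. At 24 h in OE-BRCA1, 3 of the 20 flanking genes were higher and 2 lower, against 8.26% of all genes.

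Partners and regulators of HOX genes were called in both directions between the untreated lines. The counts here and for the lists after them stand against 72.7% of all tested genes called between the untreated lines. The share called was above this in the TALE and PRC2 lists and below it in the PRC1, trithorax and MLL, and cohesin and CTCF lists. Of 10 TALE cofactors, homeodomain proteins that bind DNA together with HOX proteins, 4 were higher and 6 lower in OE-BRCA1, with a median log2 fold change of -0.50. MEIS1 was at 14.4 ± 0.715 CPM in EV and 4.37 ± 0.742 in OE-BRCA1 (-1.72 ± 0.179, adjusted p = 2.31e-08). Of 12 genes of PRC2, the polycomb complex that methylates histone H3 at lysine 27, 3 were higher and 7 lower (median -0.38), and RBBP7 was at 420.5 ± 12 and 172 ± 16 CPM (-1.29 ± 0.087, adjusted p = 2.37e-11). Of 19 genes of PRC1, the polycomb complex that ubiquitinates histone H2A, 5 were higher and 7 lower (median -0.03). Among these the catalytic subunit RNF2 was at 38.7 ± 4.22 and 8.38 ± 1.11 CPM (-2.21 ± 0.141, adjusted p = 8.8e-12), PCGF5 at 65.0 ± 6.61 and 9.07 ± 1.68 CPM (-2.84 ± 0.168, adjusted p = 2.51e-12) and CBX2 at 204 ± 10.4 and 57.9 ± 6.35 CPM (-1.82 ± 0.101, adjusted p = 8.24e-13).

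Of 15 genes of the trithorax and MLL group, 4 were higher and 6 lower (median -0.03, with 72.7% of all tested genes called), and MLLT3, a reader protein that recruits elongation factors, was at 65.7 ± 8.18 CPM in EV and 0.680 ± 0.366 in OE-BRCA1 (-6.57 ± 0.229, adjusted p = 4.17e-16). Of 6 genes of cohesin and CTCF, 1 was higher, RAD21 (0.88 ± 0.110, adjusted p = 3.78e-07), and 3 lower, with SMC3 at -1.75 ± 0.148 (adjusted p = 9.88e-10). Retinoic acid genes leaned the other way. Of 12 tested, 9 were higher and 1 lower in OE-BRCA1, with a median of 2.04 against 0.11 over all tested genes. STRA6, the receptor that takes up retinol, was at 2.91 ± 0.110 CPM in EV and 32.8 ± 6.89 in OE-BRCA1 (3.49 ± 0.192, adjusted p = 7.63e-13), and RARB, a retinoic acid receptor, at 0.144 ± 0.129 and 1.28 ± 0.530 CPM (3.08 ± 0.569, adjusted p = 5.84e-05).

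Other homeobox and positional genes were also split by line. Of 9 tested ParaHox and linked homeobox genes, 4 were higher and 5 lower (median -2.24, with 72.7% of all tested genes called). EN2, known for the midbrain and hindbrain boundary, had 0 reads in untreated EV and was at 17.4 ± 3.74 CPM in OE-BRCA1. DLX2, a branchial arch gene on the chromosome of HOXD, was at 21.2 ± 1.80 and 0.539 ± 0.204 CPM (-5.28 ± 0.257, adjusted p = 9.73e-14) and MEOX1, a somite gene, at 13.5 ± 1.18 and 0.0835 ± 0.0964 CPM (-7.22 ± 0.402, adjusted p = 9.31e-13). Of 26 other positional factors, 19 were higher and 6 lower in OE-BRCA1 (median 1.65), with BARX2 (97.1 ± 13.2 CPM), IRX2 (51.9 ± 5.30), IRX4 (36.5 ± 5.09) and LMX1B (34.2 ± 4.01) at 0 reads in each untreated EV library.

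The same lists were counted under olaparib. At 24 h in EV, 1 of 10 TALE, 2 of 19 PRC1, 1 of 12 retinoic acid and 2 of 26 other positional genes were higher, 3 of 15 trithorax and MLL and 2 of 6 cohesin and CTCF genes were lower, and of 12 PRC2 genes 1 was higher and 1 lower, against 13.7% of all genes called. At 24 h in OE-BRCA1, 1 of 10 TALE, 1 of 19 PRC1 and 1 of 26 other positional genes were higher, and of 12 PRC2 genes 1 was higher and 1 lower, against 8.26% of all genes. In the interaction at 24 h, 19.4% of all genes were called. The list counts were taken without the offset for GC content and length, though the GC content correlation differed between the lines at 24 h. A higher log2 fold change from untreated in OE-BRCA1 than in EV was found for 4 of 6 cohesin and CTCF genes (median 0.60). The same held for 3 of 15 trithorax and MLL genes, while 3 of 12 retinoic acid and 3 of 26 other positional genes had a lower one. Of 19 PRC1 genes 3 were higher and 3 lower, of 12 PRC2 genes 2 and 1, of 10 TALE genes 1 and 1, of 17 non-coding genes 2 and 2 and of 20 flanking genes 2 and 3.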

How the data were processed

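Total RNA was extracted with TRIzol and libraries were made with the NEBNext Ultra II RNA kit. The authors deposited raw counts of reads per gene, and the submitters' processing notes name HISAT2, featureCounts, DESeq2 and the GRCh38 (hg38) assembly. Versions, the annotation release and the strand setting are not given in the sources used here. The 18 tables of single libraries held the same counts as the joint table.

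Identifiers were matched to symbols for 34966 of 35044 genes (99.78%), and positions and exonic lengths came from GENCODE 29. Tables were joined with pandas 2.3.3 in Python 3.11.15. Promoter sequence came from RefSeq on GRCh38.p14. Genes were filtered with filterByExpr by condition, leaving 18335, and libraries were scaled by TMM. A single model with a mean for each of 6 conditions was fitted to all 18 libraries with the quasi-likelihood test of edgeR 4.0.16 in R 4.3.3, and p-values were adjusted over all 18335 genes by Benjamini-Hochberg, with a threshold of 0.05. The biological coefficient of variation was 12.9%. The test was checked on simulated counts with a fixed spread, with changes planted only in genes over 1 CPM in both lines. That check does not cover genes near 0 in a line. DESeq2 1.42.0 served as an alternative, as did size factors of DESeq2, other filters, the compared conditions alone, an offset for GC content and length (mgcv 1.9.3), the replicate number as a block and each library left out. Counting intervals are exact at 95% and, like the floor of 3 counts, cover counting error only. Standard errors of log2 fold changes were derived as the absolute change over the square root of the F statistic, and their 95% intervals from these. Where a group had few reads, such standard errors can be smaller than counting error.

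The HOX genes and the gene lists were chosen with earlier results of these data known. HOX genes with a row were given, those at 1 CPM or more in at least 1 condition by their values and the rest by reads. From a list the genes named were among those called with the largest change and a mean of at least 1 CPM in a line, up to 4 a list. A few genes that counts and sums include are not reported here by name.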

Additional observations from a re-analysis of the deposited data

Results flagged for a closer look

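HOXD10, HOXD11, HOXA11 and HOXC5 were called at 24 h of olaparib by the interaction term of edgeR's quasi-likelihood test. They were 4 of 31 tested HOX genes (12.9%), against 19.4% of all tested genes. The difference of log2 fold changes, OE-BRCA1 minus EV, was 3.03 for HOXD10 (adjusted p = 0.00184), 2.96 for HOXD11 (adjusted p = 0.0273), -1.22 for HOXA11 (adjusted p = 0.00311) and -4.04 for HOXC5 (adjusted p = 0.014). For HOXA11 the 3 EV libraries had a mean of 15.2 CPM without olaparib and 19.2 CPM at 24 h, and the 3 OE-BRCA1 libraries 8.19 and 4.42 CPM. The other 3 genes were at 29 reads or fewer over 3 libraries of OE-BRCA1 in both conditions. They entered the test only through their level in EV and did not pass the filter with the OE-BRCA1 conditions alone. HOXD11 and HOXC5 each lost the call when 1 of the libraries of OE-BRCA1 named beside them above was left out.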

How the results depend on the processing

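Of the single-gene results tabulated under the alternatives, 1207 kept their direction and their side of the threshold, 40 kept their direction without passing it and 0 were reversed. The line comparisons held 350 kept and 12 not passing when untreated, 371 and 3 at 12 h, and 347 and 2 at 24 h. EV at 24 h held 7 and 6, and OE-BRCA1 9 and 3 at 12 h and 51 and 10 at 24 h. The interaction at 24 h held 72 and 4. Settings in which a gene did not pass the filter were not counted. Alternatives stand here beside the HOX genes called with all settings as described, with pairs for all genes called higher and lower. EV at 24 h (1 called) gave 0 at an absolute log2 fold change over 1 (249 and 97). It gave 2 with the DESeq2 Wald test, HOXA5 and HOXD9 (2009 and 1406 of 18335), and 2 without a filter (1923 and 1149 of 35044). The compared conditions alone gave 5, HOXA5, HOXB13, HOXD9, HOXD10 and HOXD11 (2777 and 2396 of 14825). The GC content and length offset gave 2, HOXC6 and HOXC13 (1341 and 1247 of 18335), and the left-out libraries gave 0 to 2. OE-BRCA1 at 12 h (1) gave 2 with DESeq2 (447 and 224 of 18335) and 0 with the compared conditions alone (228 and 58 of 16118). It gave 2 with the offset (569 and 589 of 18335) and 0 to 1 over the left-out libraries. OE-BRCA1 at 24 h (5) gave 1 with the compared conditions alone, HOXA11 (474 and 335 of 16283), since HOXC5, HOXD9, HOXD10 and HOXD11 did not pass the filter there. It gave 2 to 5 over the left-out libraries. The interaction at 12 h (0) gave 1 with DESeq2 (194 and 132 of 18335), without a filter (253 and 391 of 35044) and with the offset (285 and 308 of 18335). It gave 0 to 1 over the left-out libraries. At 24 h (4) the interaction gave 7 with the offset (1406 and 1920 of 18335) and 3 to 5 over the left-out libraries. Apart from the change of filter the causes were not tested. At 5 CPM the HOX genes expressed in OE-BRCA1 numbered 10, 10 and 7 in place of 19, 18 and 20 at the 3 times. Replicate numbers did not pair the samples (6 of 21 same-number correlations over 0.1, range -0.393 to 0.297). With the replicate block the 9 comparisons called 27, 29, 27, 0, 1, 1, 4, 0 and 4 HOX genes in the order line (untreated, 12 h, 24 h), EV (12 h, 24 h), OE-BRCA1 (12 h, 24 h) and interaction (12 h, 24 h). Of all 18335 genes the block called, higher and lower between the lines, 7194 and 6107, 7111 and 6187, and 7287 and 6197. Within EV these were 0 and 1, and 1277 and 681, and within OE-BRCA1 279 and 85, and 701 and 478. In the interaction they were 67 and 10, and 1329 and 1831. The calls on HOXC8 without olaparib (-0.60, adjusted p = 0.0698) and HOXD9 in OE-BRCA1 at 24 h (2.97, adjusted p = 0.0531) were lost, and no other call. Depth limits the HOXD genes of OE-BRCA1, HOXC5 and HOXB2, which rest on few reads.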
